A study of Mus musculus with 12 samples.

Results

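The mitochondrial ribosome translates the few proteins encoded by the mitochondrial genome, all of them subunits of the oxidative phosphorylation complexes. Its RNAs come from the mitochondrial genome, but its proteins are encoded in the nucleus, made in the cytosol and imported. Some of these proteins have a homologue in the bacterial ribosome, and others are found in mitochondria only. Activated T cells build up mitochondria and their translation machinery as they leave the resting state, and the production of these subunits depends on it.

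Expression of the mitochondrial ribosomal protein genes was examined in CD4+ T cells isolated from the spleen of wild type C57BL/6 mice aged 7 weeks according to the labels. All cultures received anti-CD3 (0.5 µg/ml) for 3 days, which stimulates the T cell receptor, so none of the groups was unstimulated. These conditions and the age are those of the labels, whereas the methods of the study also name soluble anti-CD28 and give a higher age. The 4 groups were Control (no drug), Metformin (an antidiabetic drug that inhibits respiratory complex I), FK506 (tacrolimus, a calcineurin inhibitor that blocks NFAT activation) and Metformin+FK506 (both drugs). Polyadenylated RNA was sequenced from 3 samples in each group, and neither the drug doses of these cultures nor the number of mice behind a sample is given in the sources used here. P-values therefore measure the spread between these samples, which may be technical. Members were all protein-coding genes of the deposited table whose symbol starts with Mrpl or Mrps followed by a number. There were 78 of them among 45777 listed genes, and all 78 passed the filter on low values (at least 3 samples with an FPKM of 0.5 or more, where FPKM is the count per transcript length and library size). Another 5 rows with such symbols were pseudogenes and were left out. Of the members, 51 encode proteins of the large subunit, among them Mrps18a and Mrps30 despite their names, and 26 encode proteins of the small subunit. The remaining member, Mrps36, is named for the small subunit but is now known as a component of the 2-oxoglutarate dehydrogenase complex. The members lie on 17 chromosomes, with at most 11 on any of them.

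Total counts ranged from 43402632 to 64290105 per sample. All 10 T cell markers were expressed in every group, and with FK506 6 were lower and 4 higher. Their summed TMM-scaled CPM (counts per library size after TMM normalization) was 4729.8 to 4797 in Control, 4599.8 to 4740.3 with metformin, 3704 to 3808 with FK506 and 3998 to 4066 with Metformin+FK506, whereas in TPM the sum was higher with FK506 (4861 to 5002) than in Control (4655 to 4733). The summed level of 10 B cell markers (TMM-scaled CPM) was 165 to 183 in the Control samples, 230 to 266 with metformin, 1875 to 1922 with FK506 and 921 to 968 with Metformin+FK506. The summed level of 10 myeloid markers was 6.80 to 7.02 in Control, 13.7 to 15.6 with metformin, 1581 to 1668 with FK506 and 1157 to 1281 with Metformin+FK506. The myeloid genes C1qa and C1qc were listed at 0 in every Control and metformin sample. Not every myeloid marker followed the sum when metformin was added to FK506. Lyz2 was lower (log2 fold change -0.84 on the TMM scale), whereas Cd68 (0.18), C1qb (0.29) and C1qc (0.39) were higher. No other tested marker of the list passed edgeR's test at an adjusted p under 0.05. The summed level of 6 CD8 and NK cell markers was 32.2 to 34.6 in Control, 59.5 to 66.3 with metformin, 40.8 to 42.5 with FK506 and 45.4 to 50.1 with Metformin+FK506. Within this list, Klrd1 was higher with FK506 than in Control (log2 fold change 2.44), whereas Cd8b1 (-0.75) and Klrk1 (-0.46) were lower. Cd8a did not pass the test in that comparison, and Klrb1c and Ncr1 were not tested. The summed level of 10 proliferation markers was lower with each drug, with 2500 to 2623 in Control, 1878 to 1950 with metformin, 779 to 807 with FK506 and 523 to 546 with Metformin+FK506. The part of these differences in the values given below was not tested. In RNA from whole cultures, fewer cells of a type and less RNA per cell cannot be told apart.

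Among the members, RNA levels per length (FPKM) averaged over all samples ranged from 3.41 for Mrpl17 to 80.7 for Mrpl52. The 5 highest were Mrpl52, Mrpl30 (62.2), Mrpl33 (59.6), Mrps21 (56.7) and Mrpl24 (56.2). The 5 lowest were Mrpl17, Mrps25 (5.12), Mrpl35 (5.47), Mrpl11 (5.78) and Mrpl41 (6.19). All of these encode structural proteins of the ribosome, so these FPKM levels differed widely between parts of the same particle. Mrps25 overlaps exons of Nr2c2, a nuclear receptor gene on the opposite strand, over 3533 bases, and whether strand was used in counting is not stated, so its level is uncertain. Exons of 26 members overlap those of another gene, on the same strand in 5 members and on the opposite strand in 22.

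Upstream sequence is shown for 4 members that recur below, because nuclear genes for mitochondrial proteins are known to be controlled through promoter motifs. Sequences are the 150 bases before the transcription start of each promoter window, 5′ to 3′, from RefSeq on GRCm38.p6 (mm10, the build of the deposited data). Mrpl12 lies on chr11:120484487-120484636 (+ strand), Mrpl30 on chr1:37890327-37890476 (+ strand), Mrpl52 on chr14:54426759-54426908 (+ strand) and Mrpl1 on chr5:96209965-96210114 (+ strand). The start used for Mrpl1 is that of the RefSeq promoter window, and the gene record begins further upstream, at 96209498, so the stretch shown lies within the annotated gene, unlike those of the other 3 members. Capitals mark the NRF-1 motif (GCGC, any base, TGCGC) in Mrpl12 and Mrpl30 and the ETS motif CCGGAAG (on the reverse strand) in Mrpl52, and Mrpl1 holds none of the motifs searched in this stretch.
Mrpl12: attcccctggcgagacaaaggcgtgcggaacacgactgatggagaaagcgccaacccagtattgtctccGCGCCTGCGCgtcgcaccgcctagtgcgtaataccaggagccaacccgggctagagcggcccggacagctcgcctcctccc
Mrpl30: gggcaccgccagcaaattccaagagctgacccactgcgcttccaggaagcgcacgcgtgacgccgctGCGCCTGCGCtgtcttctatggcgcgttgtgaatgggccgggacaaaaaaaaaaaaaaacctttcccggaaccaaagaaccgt
Mrpl52: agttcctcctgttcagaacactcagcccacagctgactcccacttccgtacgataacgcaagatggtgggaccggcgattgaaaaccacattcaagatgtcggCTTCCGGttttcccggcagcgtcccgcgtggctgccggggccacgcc
Mrpl1: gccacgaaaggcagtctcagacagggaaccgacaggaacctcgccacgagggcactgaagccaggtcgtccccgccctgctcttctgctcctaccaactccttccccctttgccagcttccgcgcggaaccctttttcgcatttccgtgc

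Promoter windows of 300 bases (250 before and 50 after the start) were found for 69 of the 78 members, with 75 windows in all, and were searched on both strands for 4 motifs, counting overlapping matches of different motifs for each. The NRF-1 motif was present in 17.3% of the members' windows, compared with 9.31% of the windows of all genes tested and 4.60% of all promoters. The ETS motif, which GABP binds, was present in 34.7%, compared with 16.9% and 8.86%. The YY1 motif AAGATGGC was present in 16.0%, compared with 4.29% and 2.75%. These 3 motifs were thus more frequent in the members' windows than in those of other genes, whereas the E-box CACGTG, which MYC and other factors bind, was present in 9.33% compared with 9.74% and 7.15%. A match is a run of letters and was not tested for binding.

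FK506 was first compared with Control, which sets stimulated cultures with the calcineurin inhibitor against those without drug. These cultures also differed in their B cell and myeloid marker levels, and the part of this in the values was not tested. Most members were decreased with FK506 on the TMM scale: 67 were lower, 2 were higher and 9 did not pass the test (edgeR quasi-likelihood test, adjusted p under 0.05). In the same comparison 39.6% of all 15197 genes tested were lower and 41.3% were higher. The median log2 fold change was -0.53 over the members and 0.02 over all genes tested. Values of the FK506 and Control samples did not overlap in 73 members, compared with 84.5% of all genes tested. The summed level of the 78 members was 2973 ± 30.6 TMM-scaled CPM (SD, n = 3) in Control and 1971 ± 58.8 with FK506. How many members count as lower depended on the scale: with TPM, where the median of all genes was 0.42, 37 were lower and 17 were higher (24.0% and 59.4% of all genes tested), and with an offset for transcript length 40 were lower and 15 were higher (38.4% and 42.7% of all genes tested). Of all genes called in this comparison, 51.1% were higher with TMM, 62.1% with library totals and 71.2% with TPM. The call of lower was kept under all 7 other scalings and tests in 33 of the 67 members, of which 21 encode large subunit proteins and 12 small subunit proteins. The sum was also lower with FK506 in TPM, at 4097 ± 70.8 compared with 4701 ± 29.8 in Control (SD, n = 3).

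**Figure D1:**
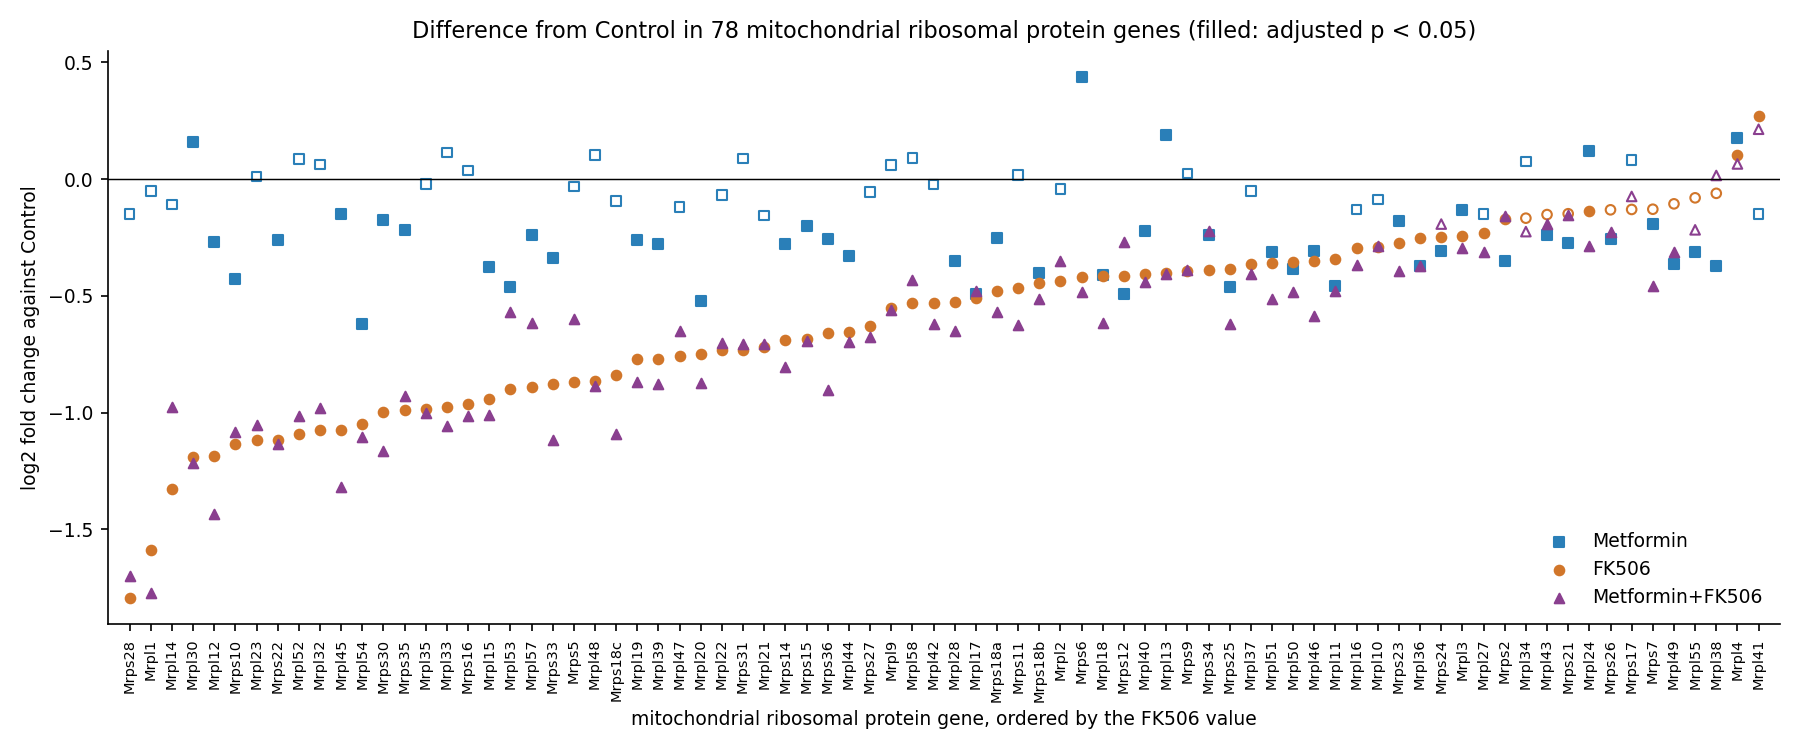
Log2 fold change against Control on the TMM scale for each of the 78 members with metformin (squares), FK506 (circles) and Metformin+FK506 (triangles), ordered by the FK506 value, with filled symbols for an adjusted p under 0.05 in edgeR's test. FK506 values run from -1.80 (Mrps28) to 0.27 (Mrpl41), Metformin+FK506 values lie close to them, and metformin values run from -0.62 to 0.44. With TPM or a length offset, 24 and 14 of the 67 members called lower with FK506 had the opposite sign.

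The members with the largest fall were a small subunit gene and 2 large subunit genes with bacterial homologues. Mrps28 was at 15.7, 16.1 and 17.7 TMM-scaled CPM in the Control samples and at 5.44, 4.81 and 3.95 with FK506. Its log2 fold change was -1.80 (SE 0.12, edgeR adjusted p = 6.57e-10). Every FK506 sample was far below every Control sample, and the fall held at -1.31 with TPM and -1.24 with the length offset. Mrpl1, a protein of the stalk through which spent tRNA leaves the ribosome, was at 52.1, 54.0 and 49.9 in Control and at 19.0, 16.9 and 15.8 with FK506. Its log2 fold change was -1.59 (SE 0.069, edgeR adjusted p = 1.72e-12), which was -1.06 with TPM and -1.63 with the length offset. Mrpl14, which lies at the interface of the subunits, was at 36.7, 37.2 and 34.3 in Control and at 14.5, 14.3 and 14.2 with FK506. The FK506 samples lay close together and below all Control samples (log2 fold change -1.33, SE 0.086, edgeR adjusted p = 3.84e-10), and the fall was smaller with TPM (-0.99) and with the length offset (-0.79). In all, 12 members were lower by at least 1 on the log2 scale, compared with 16.7% of all genes tested.

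The highly expressed members were not alike. Mrpl52 fell from 101 ± 2.11 FPKM in Control to 55.0 ± 4.45 with FK506 (SD, n = 3; log2 fold change of the scaled counts -1.09). Mrpl30 was at 82.0, 77.3 and 82.0 TMM-scaled CPM in Control and at 37.5, 35.1 and 33.2 with FK506, a log2 fold change of -1.19. Mrpl33 fell by 0.97 on the log2 scale. These falls passed the test under every scaling and test tried. By contrast, Mrps21 (57.9 ± 3.96 FPKM in Control and 60.6 ± 2.95 with FK506) did not pass the test on the TMM scale, with a log2 fold change of -0.15 that became 0.30 with TPM. Mrpl24 was lower on the TMM scale (-0.14, edgeR adjusted p = 0.00969) and higher with TPM (0.26) and with the length offset (0.21), so no direction is given for it. Among the lowly expressed members, Mrpl35 fell by 0.98 and kept its call under every scaling, while Mrpl17 was lower on the TMM scale (-0.51) and did not pass the test with TPM (-0.06). Mrps25 (-0.39) and Mrpl11 (-0.34) were lower on the TMM scale and above 0 with TPM (0.059 and 0.10), so no direction is given for them either.

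Only 2 members were higher with FK506 on the TMM scale. Mrpl41, a large subunit protein found in mitochondria only, was at 14.6, 16.5 and 14.5 in Control and at 20.7, 17.1 and 17.0 with FK506. The groups did not overlap, although the nearest samples were close (log2 fold change 0.27, SE 0.096, edgeR adjusted p = 0.0167). It was higher under each of the 7 other scalings and tests (0.67 with TPM, 0.30 with the length offset), but the call was lost without Control replicate 1 (adjusted p = 0.0565), Control replicate 3 (0.0629) or FK506 replicate 1 (0.112). Mrpl4, whose bacterial homologue lines the exit tunnel of the ribosome, was at 47.7, 49.5 and 48.8 in Control and at 54.5, 51.4 and 50.7 with FK506, a log2 fold change of 0.10 (edgeR adjusted p = 0.0401). This call was lost without any of 4 libraries (Control replicates 1 and 3, Metformin replicate 2 and FK506 replicate 1), with adjusted p from 0.0503 to 0.162.

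**Figure D2:**
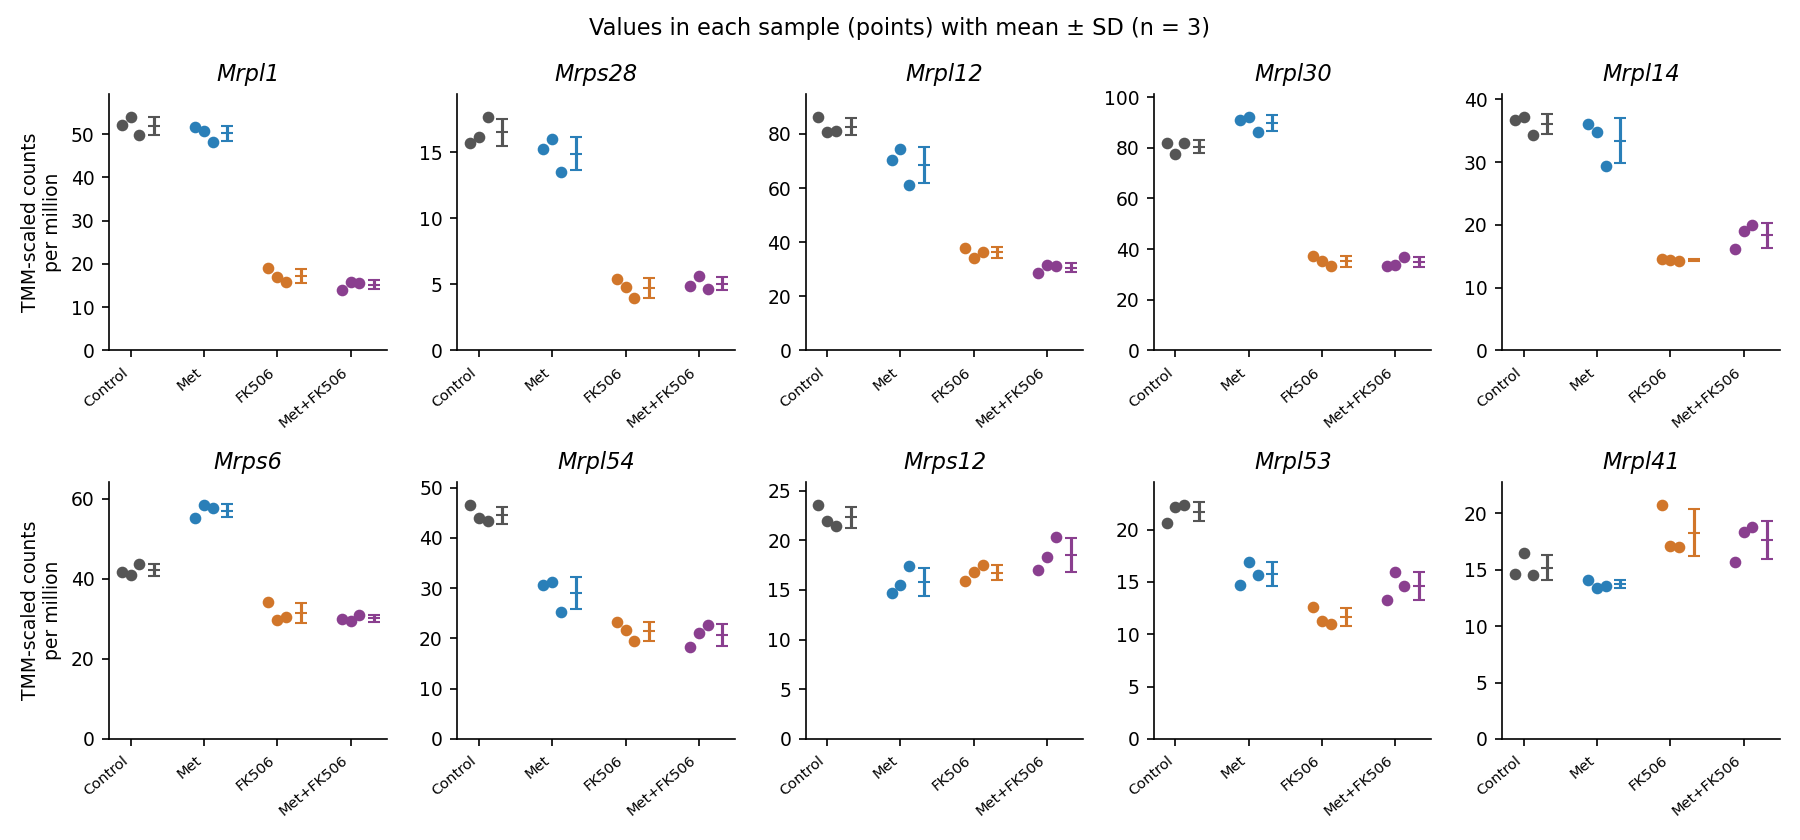
TMM-scaled CPM in each of the 12 samples for 10 members, with replicates 1 to 3 from left to right and the mean ± SD (n = 3) beside them, each axis starting at 0. Mrpl1, Mrps28, Mrpl12 and Mrpl30 are low in all 6 samples with FK506, Mrps6 is highest in the 3 metformin samples, and Mrpl41 is highest in an FK506 sample.

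On the TMM scale, the fall was seen in both subunits and in proteins of both origins. With FK506, 44 of 51 large subunit members and 22 of 26 small subunit members were lower, compared with 39.6% of all genes tested. Median log2 fold changes over the large and small subunit members were -0.53 and -0.46. The call of lower was kept under all other scalings and tests by 21 of the 44 and 12 of the 22. The same share of 39.6% stands beside the counts by origin below, which are given on the TMM scale only. Among large subunit members, 27 of 30 with a bacterial homologue and 17 of 21 without were lower, with medians of -0.54 and -0.53. In the small subunit the counts were 13 of 16 and 9 of 10, with medians of -0.44 and -0.54. No test of a difference between these groups was made. The 3 Mrps18 paralogs, which take different places in the ribosome, all had lower values with FK506 on the TMM scale: -0.48 for Mrps18a, -0.45 for Mrps18b and -0.84 for Mrps18c. Of these only Mrps18c kept its call with TPM (-0.39) and with the length offset (-0.49), and its exons overlap another transcript on the same strand. Mrps36 was lower as well (-0.66 with FK506). The 13 members with an NRF-1 motif in their window had a median of -0.77 and the 56 without it -0.46, whereas the medians with and without the ETS motif were -0.52 and -0.53. For the YY1 motif they were -0.44 in the 12 members with it and -0.55 in the others, and for the E-box -0.43 in the 5 with it and -0.53 in the others. These medians were not tested.

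Transcript length moved with the fold change. Lengths implied by count and FPKM had a median of 1219 bases in the members and 2774 in all genes tested. In the length bin (10 bins of equal gene number) between 652 and 1252 bases, which held 36 of the members, the other genes had a median log2 fold change of -0.45 with FK506 and the members -0.50. In the bin between 1252 and 1745 bases, the 16 members had a median of -0.46 and the other genes -0.18. In the 5 members of 652 bases or fewer it was -0.97, compared with 0.0027 in the other genes. The members between 652 and 1252 bases thus had a median close to that of other genes of their length, and the shorter and longer ones had lower medians. With TMM, library totals, FPKM values or TPM, 76 of the 78 members lay below the median of all genes tested, and with the length offset 58 did. For Mrpl48, the implied length rose from 1467 bases in Control to 2701 with FK506, so its counts and FPKM values moved apart and its value is uncertain.

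**Figure D3:**
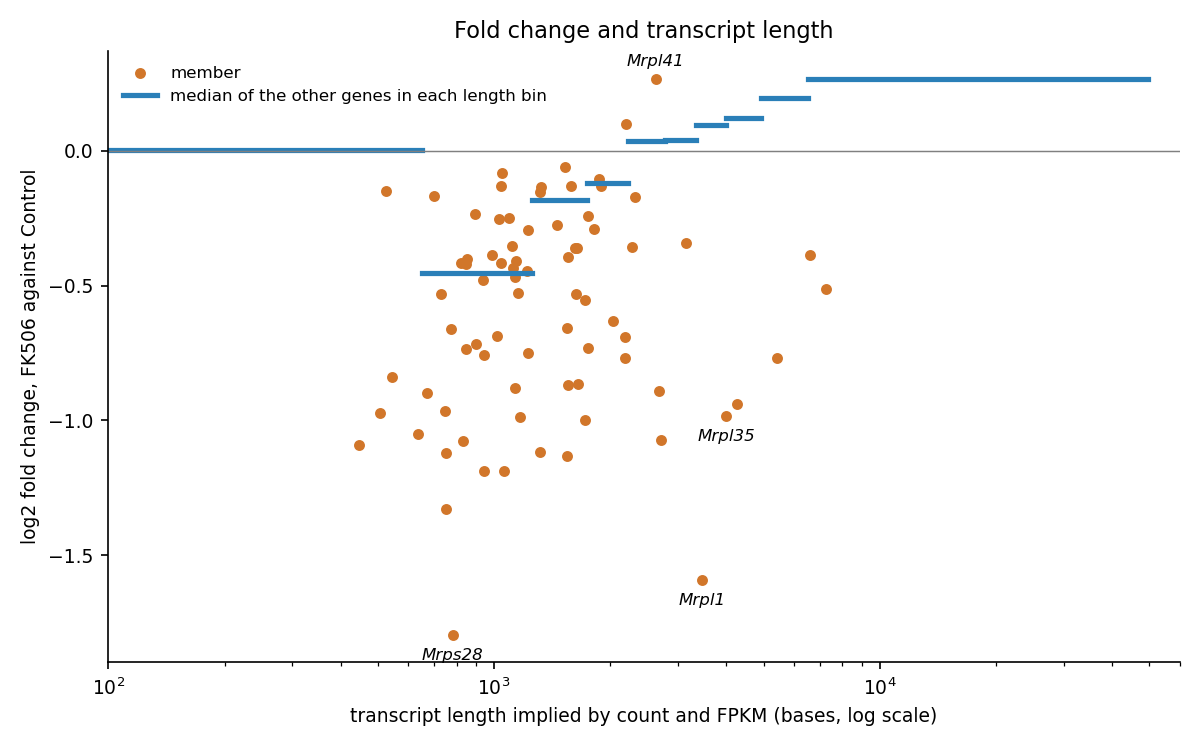
Log2 fold change with FK506 against Control (TMM scale) and transcript length implied by count and FPKM (log axis) for the 78 members, with the median of all other genes tested in each of 10 length bins as bars. The bars are lowest (-0.45) between 652 and 1252 bases, where 36 members lie, and Mrpl1 and Mrps28 lie far below the bar of their length.

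**Figure D4:**
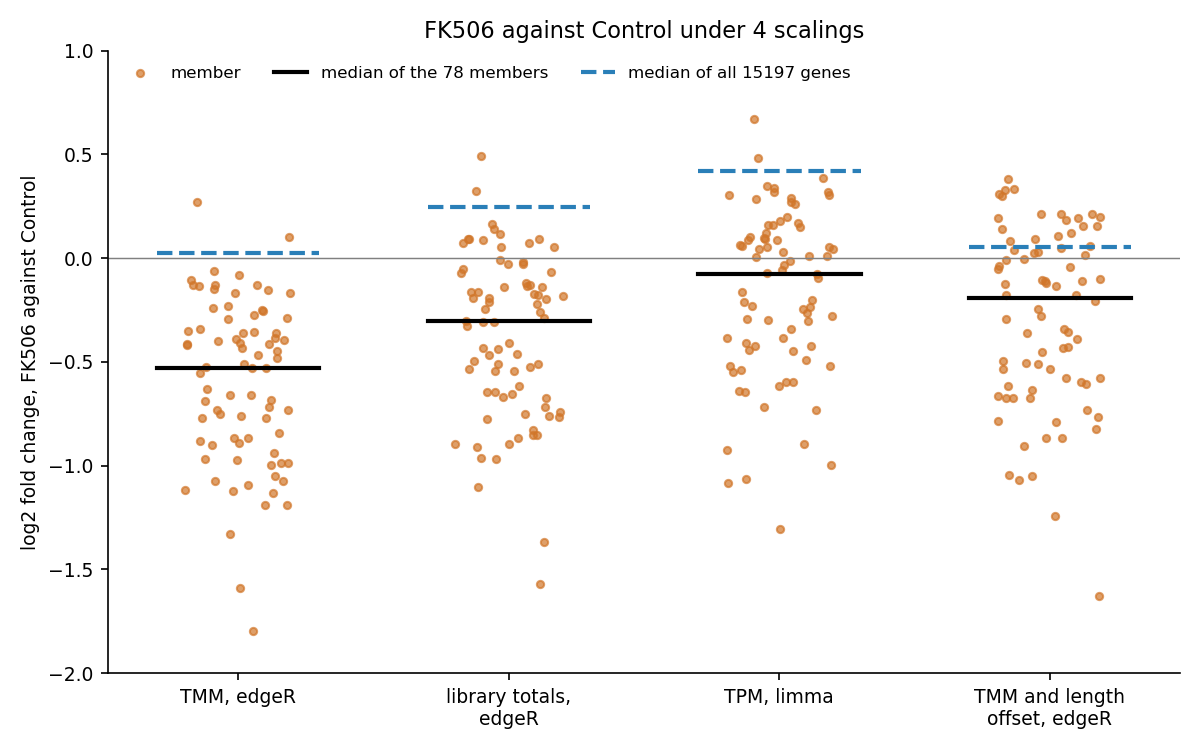
Log2 fold change with FK506 against Control for the 78 members under 4 ways of scaling, with the median of the members (solid bar) and of all 15197 genes tested (dashed bar). The members' median is -0.53 with TMM, -0.30 with library totals, -0.07 with TPM and -0.19 with the length offset, and the median of all genes is 0.02, 0.25, 0.42 and 0.05.

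Other genes of mitochondrial translation were compared in the same way. Beside each count below stands a share over all genes tested of 39.6% lower and 41.3% higher. All 5 genes of mitochondrial ribosomal proteins under other names were lower with FK506 (median log2 fold change -0.66), with Gadd45gip1, a large subunit protein, at -1.82 and Chchd1, a small subunit protein, at -1.54. Of 26 ribosome assembly factors, 14 were lower and 7 higher. Among them Mettl15, an rRNA methyltransferase, was at -1.02 and Malsu1, which keeps the immature large subunit from joining, at -0.98, whereas Mterf3 (0.54) and Mpv17l2 (0.42) were higher. Of 15 translation factors, 9 were lower and 1 was higher. Tsfm, the exchange factor of the elongation factor, was at -1.03 and Slirp, which stabilizes mitochondrial mRNA, at -1.01, while the release factor Mtrf1l was at 0.40. Of 20 mitochondrial tRNA synthetases and related enzymes, 10 were lower and 3 higher (Nars2 -1.15, Yars2 -0.77, Hars2 0.35, Qrsl1 0.28). Of 8 genes of mitochondrial DNA transcription and replication, 2 were lower and 3 higher, with the RNA polymerase Polrmt at 0.34. All these values are on the TMM scale, and on it the members had a lower median than each of these lists except the ribosomal proteins under other names. The lists were not ranked with TPM or the length offset, where the members' median was -0.07 and -0.19.

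Among 8 tested regulators of mitochondrial biogenesis, 3 were lower and 3 higher with FK506, compared with 39.6% and 41.3% of all genes tested. Myc, a transcription factor of growth, was at -2.87 and the coactivator Pprc1 at -0.84, whereas Ppargc1b was at 0.92. The factors named for the promoter motifs were not alike. Myc, named for the E-box, had the largest fall of the list, and of the GABP subunits Gabpb1 was lower (-0.43, edgeR adjusted p = 6.51e-07) while Gabpa was at -0.05 and did not pass the test. Nrf1 was higher by 0.14, and Yy1, at -0.05, did not pass the test. For comparison, 86 of 87 cytosolic ribosomal protein genes were lower with FK506 (median -1.54), and so were 74 of 82 nuclear respiratory chain genes (median -0.64).

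Metformin was next compared with Control. The members were mostly lower, but by small amounts: 43 were lower, 5 were higher and 30 did not pass the test, compared with 27.4% and 28.6% of all genes tested. The median was -0.19 over the members and 0.01 over all genes tested. No member was lower by 1 on the log2 scale, compared with 5.65% of all genes tested, and 2 were lower by at least 0.5, compared with 12.4%. Values of the metformin and Control samples did not overlap in 51 members, compared with 66.4% of all genes tested. Unlike the comparison with FK506, the call of lower was kept by 38 of the 43 members under all 7 other scalings and tests, and none had the opposite sign with TPM or with the length offset. The summed level was 2699 ± 67.9 TMM-scaled CPM (SD, n = 3).

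The largest falls with metformin were in Mrpl54, a large subunit protein found in mitochondria only, Mrpl20 and Mrps12. Mrpl54 was at 46.5, 43.9 and 43.3 in Control and at 30.6, 31.2 and 25.3 with metformin (log2 fold change -0.62, SE 0.089, edgeR adjusted p = 1.91e-05). Mrpl20 was at 35.3, 39.0 and 36.6 in Control and at 26.3, 27.3 and 23.6 with metformin (-0.52, SE 0.087, edgeR adjusted p = 8.16e-05). Mrps12, a protein of the decoding centre, was at 23.5, 22.0 and 21.5 in Control and at 14.7, 15.5 and 17.4 with metformin (-0.49, SE 0.085, edgeR adjusted p = 0.000117). In all 3 genes the groups were apart, and the call was kept under every scaling and without each library in turn. Mrpl17 fell by 0.49 on the log2 scale, and Mrpl11 and Mrps25 each by 0.46.

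Mrps6 rose most with metformin. It was at 41.7, 40.9 and 43.8 in Control and at 55.2, 58.4 and 57.7 with metformin (log2 fold change 0.44, SE 0.056, edgeR adjusted p = 4.71e-06), and the rise was 0.41 with TPM. The exons of Mrps6 overlap those of Slc5a3, a myo-inositol transporter gene on the same strand, over 159 bases. Slc5a3 rose by 0.51 in the same comparison. It also rose by 0.70 when metformin was added to FK506, where Mrps6 was at -0.06. The part of shared reads was not tested. Mrpl30 was higher by 0.16 (edgeR adjusted p = 0.016), a call lost without Control replicate 2 or Metformin replicates 1 or 2 (adjusted p from 0.0521 to 0.0766). Mrpl4 was higher by 0.18 on the TMM scale and did not pass the test with TPM. The other members called higher were Mrpl13 (0.19) and Mrpl24 (0.12). The call for Mrpl13 was lost without Control replicates 1 or 3 or Metformin replicate 2 (edgeR adjusted p from 0.0914 to 0.119). That for Mrpl24 was lost with TPM and without Control replicates 2 or 3, Metformin replicate 2 or FK506 replicate 3 (edgeR adjusted p from 0.0508 to 0.163). In contrast to the members, 77 of 87 cytosolic ribosomal protein genes were higher with metformin (median 0.28), while 46 of 82 nuclear respiratory chain genes were lower and 9 higher (median -0.16). Of all genes tested, 28.6% were higher and 27.4% lower. Myc was at -1.32 and all 10 proliferation markers were lower (median -0.38). All 4 tested CD8 and NK cell markers were higher with metformin (Klrd1 by 2.63, Cd8a by 0.73), and their part in the members' values was not tested.

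With both drugs the values against Control were close to those with FK506 alone. Both comparisons share the Control samples, so their likeness is no separate result. With Metformin+FK506, 71 members were lower on the TMM scale, none was higher and 7 did not pass the test in edgeR, compared with 39.6% lower and 42.1% higher among all genes tested. At an unadjusted p under 0.05 edgeR called 1 member higher, Mrpl41. The members called higher numbered 1 with DESeq2, 3 with limma on FPKM values, 14 with TPM and 16 with the length offset, compared with 42.3%, 49.4% (log2(FPKM + 1)), 59.4% and 42.6% of all genes tested. The median was -0.61 over the members and 0.03 over all genes tested, and 17 members were lower by at least 1 on the log2 scale compared with 17.3% of all genes tested. Values did not overlap between the groups in 69 members, compared with 82.3% of all genes tested. With TPM, 38 were lower, compared with 24.3% of all genes tested, and 32 of the 71 kept the call under all 7 other scalings and tests. Mrpl1 was at 14.0, 15.9 and 15.6 TMM-scaled CPM with both drugs (log2 fold change -1.77, SE 0.07, edgeR adjusted p = 4.82e-13). Mrps28 was at 4.86, 5.64 and 4.66 (-1.70), and Mrpl12, a protein that recruits translation factors, at 28.8, 31.7 and 31.2 compared with 86.3, 80.6 and 80.9 in Control (-1.43, SE 0.067, edgeR adjusted p = 4.76e-12). All these samples were below every Control sample, and the calls were kept under every scaling.

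Adding FK506 to metformin lowered 59 members and raised 4 on the TMM scale, compared with 37.9% and 40.3% of all genes tested, while 15 did not pass the test. The median was -0.41 over the members and 0.02 over all genes tested. Values did not overlap in 61 members, compared with 78.9% of all genes tested, and 11 members were lower by at least 1 on the log2 scale, compared with 14.6%. This split depended on the scale: TPM gave 24 lower and 33 higher, compared with 20.3% and 62.4% of all genes tested, and the length offset 34 and 20, compared with 36.3% and 42.2%. With TPM, 65 of the 78 members lay below the median of all genes tested. The call of lower was kept under all 7 other scalings and tests by 23 of 59 members. The largest falls were those of Mrpl1 (-1.72), Mrps28 (-1.55) and Mrpl30 (-1.37), which kept their calls. All 4 rises also kept theirs under these scalings. Mrpl38 was at 27.1, 26.6 and 28.1 with metformin and at 35.3, 34.3 and 37.4 with both drugs (0.39, SE 0.061, edgeR adjusted p = 2.37e-05). Mrpl41 was at 14.1, 13.4 and 13.6 with metformin and at 15.7, 18.3 and 18.8 with both drugs (0.36, SE 0.096, edgeR adjusted p = 0.00264). The groups were apart for both. Mrps2 was higher by 0.20 and Mrps12 by 0.22, and both calls were lost without Metformin replicate 2 (edgeR adjusted p = 0.0539 and 0.0694) or Metformin+FK506 replicate 3 (0.0781 and 0.102). That for Mrps12 was also lost without Metformin replicate 1 (0.101).

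Adding metformin to FK506 changed few members. Compared with FK506 alone, 8 were lower, 4 were higher and 66 did not pass the test, compared with 15.0% lower and 15.6% higher among all genes tested. The median was -0.05, no change reached 0.5 on the log2 scale, and values did not overlap in 18 members, compared with 39.8% of all genes tested. The count of lower members ranged from 3 without FK506 replicate 1 to 14 without Metformin+FK506 replicate 2, and was 5 without Metformin+FK506 replicate 1. Mrps7, a protein of the small subunit head, was at 47.1, 48.0 and 44.5 with FK506 and at 37.1, 39.8 and 34.3 with both drugs (log2 fold change -0.33, SE 0.059, edgeR adjusted p = 0.00051). The groups were well apart, and the call was kept under every scaling and without each library in turn. Mrps18c and Mrpl12 were each lower by 0.25 on the log2 scale, calls lost without FK506 replicate 1 (adjusted p = 0.0568 and 0.0531).

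The 4 members higher than with FK506 alone were Mrpl14, Mrpl53, Mrpl57 and Mrps5. Mrpl14 was at 14.5, 14.3 and 14.2 with FK506 and at 16.1, 19.0 and 20.0 with both drugs (0.35, SE 0.087, edgeR adjusted p = 0.00585). Mrpl53 was at 12.6, 11.3 and 11.0 with FK506 and at 13.3, 15.9 and 14.6 with both drugs (0.33, SE 0.089, edgeR adjusted p = 0.00989). Mrpl57 was at 14.6, 13.0 and 14.1 with FK506 and at 15.0, 17.0 and 18.6 with both drugs (0.27, SE 0.082, edgeR adjusted p = 0.0178). The groups did not overlap in these 3 genes, but the lowest sample with both drugs lay close to the highest with FK506. The call for Mrpl53 was lost without FK506 replicate 3 (adjusted p = 0.05) or Metformin+FK506 replicate 2 (0.051), and that for Mrpl57 without FK506 replicate 2 (0.0859) or Metformin+FK506 replicate 3 (0.0907). Exons of Mrpl53 overlap those of Gm42688 on the same strand over 418 bases, so its reads may be shared.

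The difference that metformin made was then compared between cultures with and without FK506 by the interaction term. It was above 0 in 19 members, below 0 in 3 and did not pass the test in 56, compared with 22.5% above and 24.0% below among all genes tested (46.5% in either direction). The median was 0.14 over the members and -0.02 over all genes tested, and 14 of the 19 and 2 of the 3 kept the call under all 7 other scalings and tests. In 17 of the 19 the value with metformin alone was a fall past the test, and Mrpl14 and Mrps5 were the others. That value enters the interaction with a minus sign, and 43 of all 78 members fell past the test with metformin alone. This overlap is therefore partly built in and is no separate result. Mrpl53 had the largest interaction (0.79, SE 0.12, edgeR adjusted p = 7.05e-05): it fell by 0.46 with metformin alone and rose by 0.33 when metformin was added to FK506. As given above, the call for that rise was lost without some single libraries, and reads of Mrpl53 may be shared with Gm42688. For Mrps12 the interaction was 0.64 (SE 0.12, edgeR adjusted p = 0.000372), with -0.49 for metformin alone and 0.14 on top of FK506. For Mrpl54 it was 0.56 (SE 0.13, edgeR adjusted p = 0.00179), with -0.62 and -0.06. In the other direction, Mrps6 rose by 0.44 with metformin alone and was at -0.06 on top of FK506 (interaction -0.50, SE 0.079, edgeR adjusted p = 7.23e-05). Mrpl24 (-0.27) and Mrpl4 (-0.21) also had an interaction below 0, and that of Mrpl4 did not pass the test with TPM.

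**Figure D5:**
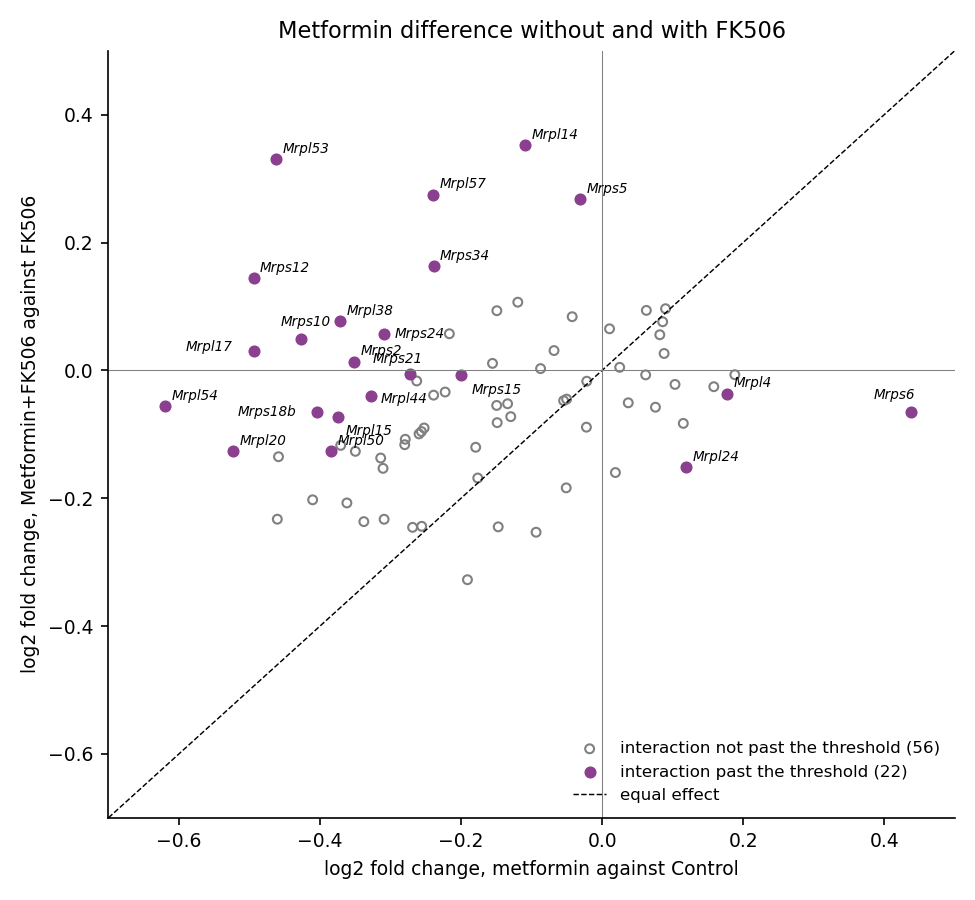
Log2 fold change of metformin against Control (horizontal) and of Metformin+FK506 against FK506 (vertical) on the TMM scale for the 78 members, with filled points for the 22 members whose interaction passed edgeR's test and a dashed line for an equal difference. Of these, 19 lie above the line and Mrps6, Mrpl24 and Mrpl4 lie below it.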

How the data were processed

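The authors deposited 1 table with read counts per gene (whole numbers, not normalized), FPKM values (scaled for transcript length and library size) and TPM values for 45777 genes in 12 samples. TPM values deposited by the authors rescale FPKM to a fixed sum per sample. The submitters' processing notes name bcl2fastq 2.20.0, Trimmomatic, HISAT2 2.1.0, StringTie 2.1.3b and mm10, without roles. The use of strand and the treatment of shared reads are not given in the sources used here.

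Counts were scaled by TMM and tested with edgeR 4.0.16 (R 4.3.3), with 4 groups of 3 in 1 fit and 8 residual degrees of freedom, on the 15197 genes reaching an FPKM of 0.5 in 3 or more samples. P-values were two-sided and adjusted over all genes by the Benjamini-Hochberg method. The SE of a log2 fold change was its size divided by the square root of the F statistic. Alternatives used DESeq2 1.42.0 and limma 3.58.1 (log2 with a pseudocount of 1 or 0.1). Exon overlaps came from GENCODE and promoters from RefSeq. Scripts were tested on simulated data. Replicates differed by more than counting noise (chi-square per degree of freedom 4.19 to 17.1), and all were kept.

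The members and gene lists were chosen with earlier results of these data known. Named members were the 3 largest rises and 3 largest falls in each of the 5 comparisons and in the interaction, past the test and with separate groups (a condition not set for the interaction), the 5 highest and 5 lowest by mean FPKM and the Mrps18 paralogs. Mrpl13, Mrps5, Mrps30, Mrps36, Mrpl48, Mrpl24 and Mrps12 were also named in comparisons outside this rule, after their values were seen.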

Additional observations from a re-analysis of the deposited data

Results flagged for a closer look

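The difference that metformin made differed between cultures with and without FK506 in 22 of 78 members by edgeR's interaction test, above 0 in 19 and below 0 in 3. Among all genes tested 46.5% passed this test, 22.5% above 0 and 24.0% below, so members passed in a smaller share than genes in general and their share above 0 was close to the background. Among the named members above 0, the interaction on the log2 scale was 0.79 for Mrpl53, 0.64 for Mrps12, 0.56 for Mrpl54, 0.52 for Mrpl17, 0.51 for Mrpl57, 0.46 for Mrpl14, 0.45 for Mrpl38, 0.40 for Mrpl20, 0.36 for Mrps2, 0.34 for Mrps18b, 0.30 for Mrps5 and 0.27 for Mrps21. Below 0 it was -0.50 for Mrps6, -0.27 for Mrpl24 and -0.21 for Mrpl4. Reads of Mrpl53 may be shared with Gm42688, whose exons overlap its own. The calls for Mrps18b, Mrps21 and Mrpl4 were lost under some scalings, and those for Mrps18b and Mrps21 also without single libraries (Mrps18b without Control replicate 1 or 2, adjusted p = 0.0558 and 0.0555; Mrps21 without any of 5 libraries, adjusted p from 0.054 to 0.098). The summed levels of the B cell, myeloid, CD8 and NK cell and proliferation markers differed between these cultures, and their part in the interaction was not tested. Among the CD8 and NK cell markers, Klrd1 (-2.77) and Cd8a (-0.53) had an interaction below 0, while Cd8b1 and Klrk1 did not pass the test.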

How the results depend on the processing

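For FK506 against Control, with 2 members higher and 67 lower, the counts were 17 and 37 with limma on log2(TPM + 1), 15 and 40 with the length offset and 0 and 41 for a change of at least 0.5. Among all genes tested 59.4% were higher and 24% lower with TPM, and 42.7% and 38.4% with the length offset. For a change of at least 0.5, 30% were higher and 28.2% lower. The count of higher members was 1 without the filter (27.4% of all genes tested) and 1 with the replicate block (41%). For Metformin+FK506 against Control (0 and 71) they were 14 and 38 with TPM (59.4% and 24.3% of all genes tested) and 16 and 41 with the length offset (42.6% and 39%). The members higher were 1 with DESeq2's size factors (42.6% of all genes tested), 1 with the DESeq2 test (42.3%) and 1 with a mean FPKM of at least 1 (43.1%). They were 4 with library totals (51.1%) and 3 with limma on log2(FPKM + 1) or log2(FPKM + 0.1) (49.4% and 49.3%). Lower members were 46 for a change of at least 0.5, compared with 28.5% of all genes tested. For Metformin+FK506 against Metformin (4 and 59) they were 33 and 24 with TPM (62.4% and 20.3% of all genes tested). With the length offset they were 20 and 34 (42.2% and 36.3%), and for a change of at least 0.5 they were 0 and 36 (27.3% and 25.3%). The members higher were 12 with library totals (49.4% of all genes tested), 11 with either FPKM pseudocount (47.5% and 47.4%) and 2 without the filter (26.2%). For Metformin against Control (5 and 43), higher members were 2 without the filter (15.1% of all genes tested) and 3 with TPM (24.5%). For a change of at least 0.5 the counts were 0 and 2 (12.6% and 12.4%). For Metformin+FK506 against FK506 (4 and 8) no member changed by 0.5 (4.88% higher and 6.03% lower). The interaction (19 above 0 and 3 below) had 5 and 1 members for a change of at least 0.5 (11.9% and 13.4%). Below 0 it had 6 with library totals (26.8% of all genes tested) and 7 with either FPKM pseudocount (27.3% and 26.5%). TPM, the length offset and the limit of 0.5 were chosen after seeing the data; apart from that limit, whose construction lowers the counts, the cause was not tested.

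Leaving out a library in turn gave 0 to 2 higher and 63 to 69 lower for FK506, 2 to 5 and 36 to 44 for metformin, and 0 to 1 and 68 to 72 for both drugs. It gave 3 to 4 and 3 to 14 against FK506, 2 to 6 and 53 to 59 against metformin, and 15 to 23 and 3 to 5 for the interaction. For FK506 no member was higher without Control replicates 1 or 3 or FK506 replicate 1, and 1 was without Metformin replicate 2. For metformin, 3 were higher without Control replicates 2 or 3 and 2 without Metformin replicate 2. For both drugs 1 was higher without Control replicate 2, FK506 replicate 1 or Metformin+FK506 replicate 1. Against metformin, 2 were higher without Metformin replicate 2 or Metformin+FK506 replicate 3. The interaction was below 0 in 5 without Metformin replicate 3. Direction reversed for some named members with FK506. With TPM, Mrpl11 was at 0.10, Mrpl24 at 0.26, Mrps18b at 0.010, Mrps21 at 0.30 and Mrps25 at 0.059. With the length offset Mrpl24 was at 0.21, Mrps18a at 0.038 and Mrps21 at 0.18. Mrpl24 was at 0.088 with library totals and at 0.027 and 0.028 with the FPKM pseudocounts of 1 and 0.1.

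Samples of the same replicate number did not deviate together (correlations from -0.071 to 0.050 over 18 pairs), so the numbers were not taken as pairs. With the replicate block the call for Mrpl4 with FK506 was lost (adjusted p = 0.0578), which left 1 member higher, and the other counts stayed within 1.5 times their value.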
